A study of Mus musculus with 64 samples.

Results

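Complement and coagulation genes encode the protease cascades of blood plasma and their receptors, cofactors and inhibitors. The set held 42 mouse genes chosen by name for these roles, of which 39 had at least 1 probe set annotated to that gene alone on the Affymetrix mouse genome array, out of 18193 genes measured in this way. The gene C3 and the carboxypeptidase gene Cpb2 were not analysed here, and C4b was covered only by a probe set that it shares with another gene. Where a gene had several probe sets of its own (11 of the 39 genes, 57 probe sets in all), the one with the highest mean over all arrays stood for it.

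Expression was measured in liver, pancreas, skeletal muscle (soleus and gastrocnemius together) and adipose tissue (5 fat pads pooled for each mouse) of 16 male F2 mice from a cross of C57BL/6J and TALLYHO/JngJ, a strain with high plasma lipids, obesity and diabetes. The mice were 24 weeks old, ate chow with 4% fat, and were taken from the upper tail (8 mice, high triglyceride) and the lower tail (8 mice, low triglyceride) of plasma triglyceride after mice with overt diabetes had been left out. Each tissue of each mouse gave 1 array, so that the 64 arrays hold 16 mice in 4 tissues. Genotypes at segregating loci vary among F2 mice, so a mouse is the replicate and no group is a single genotype. Signals are on the gcRMA log2 scale, on which 1 unit is a 2-fold difference.

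In blood, the classical pathway starts when C1q binds antibody complexes and the lectin pathway when mannose-binding lectins bind sugars, and both lead through C2 and C4 to cleavage of C3, which the alternative pathway with factor B amplifies. Cleavage of C5 then allows C6 to C9 to assemble into the pore of the terminal pathway. In coagulation, tissue factor with factor VII, or the contact factors, lead by way of factor X to thrombin, which turns fibrinogen into fibrin, while thrombomodulin, protein C and protein S hold thrombin formation back and plasmin dissolves the clot. Hepatocytes make most of these plasma proteins, whereas macrophages are a known source of C1q and properdin, and endothelial cells carry thrombomodulin.

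The liver array of low triglyceride replicate 7 was left out of all values below unless stated. Its signal correlated with the other liver arrays at 0.826 to 0.838, while those 15 arrays correlated with each other at 0.984 to 0.996, and it correlated with adipose arrays at 0.888 to 0.916. The adipocyte gene Adipoq read 14.23 on it, against at most 4.41 on the other liver arrays. All 29 members that were highest in liver lay below every other liver array on it, 22 of them under 4, and C1qa, C3ar1, F3 and Thbd lay above every other liver array. The remaining 15 liver arrays carried all 7 measured hepatocyte markers at a mean of 4 or more, the muscle arrays all 5 muscle fibre markers, the pancreas arrays all 5 measured exocrine markers, and the adipose arrays all 4 measured adipocyte markers. Adipose arrays also carried muscle fibre markers, with a summed log2 signal of 8.17 to 14.86 in high and 9.65 to 15.87 in low triglyceride mice. In liver that sum was 4.74 to 11.35 in high and 4.77 to 11.14 in low triglyceride mice, with medians of 4.86 in both. In bulk tissue, fewer cells of a type and less RNA per cell cannot be told apart.

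The 3 fibrinogen genes lie side by side on chromosome 3, and the 150 bases before the start of each are shown because their levels are compared below with each other and outside the liver. The sequences are those of RefSeq on GRCm38.p6, written 5′ to 3′ on the strand of the gene, with matches to 3 motifs in capitals.
Fga: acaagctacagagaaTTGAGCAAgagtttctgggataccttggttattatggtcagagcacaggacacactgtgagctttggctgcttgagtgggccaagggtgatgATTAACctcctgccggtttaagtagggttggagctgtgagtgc
Fgb: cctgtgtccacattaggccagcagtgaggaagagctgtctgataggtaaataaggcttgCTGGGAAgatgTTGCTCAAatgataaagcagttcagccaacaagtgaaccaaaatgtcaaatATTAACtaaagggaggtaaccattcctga
Fgg: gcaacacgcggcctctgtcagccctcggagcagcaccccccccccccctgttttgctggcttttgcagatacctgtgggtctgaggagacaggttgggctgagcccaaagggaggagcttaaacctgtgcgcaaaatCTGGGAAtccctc
These stretches are chr3:83026003-83026152 on the plus strand for Fga, chr3:83049864-83050013 on the minus strand for Fgb, and chr3:83007574-83007723 on the plus strand for Fgg. The motifs searched, on both strands, were GTTAAT, a half-site of the hepatocyte factor HNF1, TTGCNNAA, a form of the C/EBP site, and CTGGGAA, the interleukin-6 response motif of acute phase genes, and no match overlapped another. Fga held GTTAAT and TTGCNNAA, Fgb held all 3, and Fgg held CTGGGAA alone. Within 250 bases upstream, GTTAAT was present in 9 of the 32 member genes that had a sequence (28.1%) and in 6.52% of all 27025 promoters. TTGCNNAA was present in 7 of the 32 (21.9%) against 9.55% of all promoters, and CTGGGAA in 4 of the 32 (12.5%) against 9.08%. A match is a run of letters, and binding was not measured.

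Across tissues, the set fell into a large liver group and a small adipose group. For 29 of the 39 members every liver array lay above every array of the other 3 tissues, while over all genes that share was 5.62%. For 7 members, C1qb, C1qc, Cfp, C3ar1, F3, Pros1 and Thbd, every adipose array lay above all others, against a share of 20.2% over all genes. C1qa, C2 and C5ar1 were separate in no tissue. No member was separate in pancreas or muscle, where the share over all genes was 13.8% and 8.78%. By mean level alone, 30 members were highest in liver (12.3% of all genes) and 9 in adipose tissue (40.8%), and none in pancreas (27.8%) or muscle (19.1%). The tissues appear to have been normalised separately, so these levels are described without a test; the counts were 29 and 6 when all arrays were quantile normalised together.

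**Figure D1:**
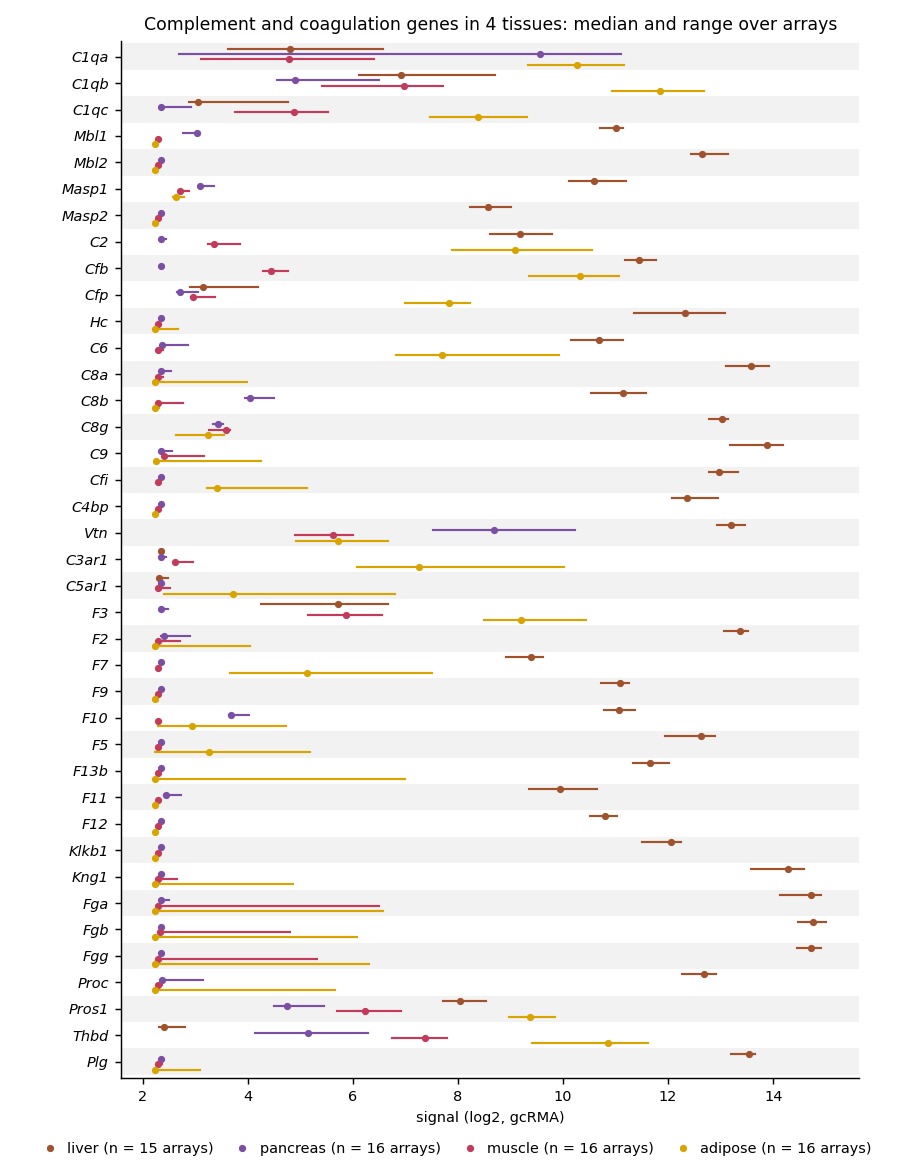
Signal of the 39 measured genes (log2, horizontal axis) in liver (15 arrays), pancreas, muscle and adipose tissue (16 arrays each). Points are medians and lines run from the lowest to the highest array. Most genes sit between 8 and 15 in liver and near the lowest value of the scale elsewhere, while C1q, Cfp, C3ar1, F3, Pros1 and Thbd are highest in adipose tissue.

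The 29 liver genes covered most steps of both cascades. Their liver means ran from 8.59 to 14.75, with a median of 12.39. The median of their means was 2.35 for pancreas, 2.29 for muscle and 2.45 for adipose tissue, which lies at or near the lowest value of each tissue (2.35, 2.29 and 2.24). The distance from the lowest liver array to the highest array elsewhere had a median of 7.64, and it was 5 or more for 24 of the 29 genes. Among liver arrays these genes varied little, with an SD over mice between 0.11 (C8g) and 0.57 (Hc) and a median SD of 0.20.

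In the lectin pathway, the mannose-binding lectin gene Mbl2 read 12.51, 12.62 and 12.84 (lowest, median and highest) in livers of high triglyceride mice and 12.43, 12.67 and 13.14 in those of low triglyceride mice. Outside the liver no array read above 2.38. Mbl1 and the lectin-associated protease genes Masp1 and Masp2 showed the same order, with lowest liver arrays of 10.70, 10.11 and 8.22 and highest arrays elsewhere of 3.08, 3.35 and 2.35. Of the Masp1 probe sets that did not stand for the gene, 1 read at most 2.36 in liver and 4.26 to 6.01 in muscle. The others were highest in liver, with liver means of 8.07, 5.86 and 4.03.

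In the terminal pathway, C9, the pore-forming subunit, read 13.38, 13.85 and 14.10 in high triglyceride livers, against 13.17, 14.00 and 14.18 in low triglyceride livers. C8a, C8b and C8g, the chains of C8, and Hc, which encodes C5, lay in the same range of tissues, with distances of 6.04 to 9.11 between liver and the rest. C6 was the exception of this pathway, with 10.14, 10.69 and 11.15 in liver and 6.81, 7.70 and 9.92 in adipose tissue. Its lowest liver array exceeded its highest adipose array by only 0.23, although liver was above adipose tissue in 15 of 15 mice.

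Factor B, the protease of the alternative pathway, also came close in adipose tissue. Cfb read 11.29, 11.39 and 11.60 in high triglyceride livers and 11.18, 11.58 and 11.77 in low triglyceride livers, and 9.35, 10.31 and 11.06 over all adipose arrays, so that the ranges of liver and adipose arrays were 0.12 apart. Within a mouse, liver exceeded adipose tissue by 1.23 ± 0.58 (SD, n = 15). C2, the protease of the classical pathway, overlapped fully, with 8.62, 9.18 and 9.80 in liver and 7.89, 9.09 and 10.54 in adipose tissue, and liver was the higher of the tissues in 9 of 15 mice. In muscle and pancreas neither gene read above 4.77.

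Of the complement inhibitors, factor I (Cfi) and C4b-binding protein (C4bp) were liver genes, C4bp with 12.14, 12.52 and 12.95 in high and 12.07, 12.28 and 12.55 in low triglyceride livers and at most 2.37 elsewhere. Vitronectin (Vtn), which blocks the terminal pathway and stabilises the plasminogen activator inhibitor, had signal in pancreas too. It read 12.93, 13.20 and 13.47 in liver and 7.52, 8.69 and 10.23 in pancreas. A second Vtn probe set showed the same order in liver and pancreas, with medians of 12.36 and 8.54, but medians of 2.29 in muscle and 2.63 in adipose tissue, where the first read 5.62 and 5.73.

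The coagulation proteases followed the liver pattern with 1 gene partly apart. Prothrombin (F2) read 13.06, 13.35 and 13.52 in high and 13.33, 13.41 and 13.52 in low triglyceride livers, with at most 4.05 in any other tissue. F9, F10, F11, F12 and plasma prekallikrein (Klkb1) had lowest liver arrays between 9.35 and 11.50 and highest arrays elsewhere between 2.35 and 4.73. Factor VII (F7), the partner of tissue factor, read 8.91, 9.38 and 9.61 in liver and 3.66, 5.13 and 7.51 in adipose tissue, where it varied from mouse to mouse. The cofactor F5, high molecular weight kininogen (Kng1), the factor XIII subunit F13b, protein C (Proc) and plasminogen (Plg) were liver genes too. Kng1 had a liver mean of 14.27 ± 0.25 (SD, n = 15). F13b read 11.33, 11.74 and 12.01 in high and 11.37, 11.60 and 11.83 in low triglyceride livers, and 1 adipose array, that of low triglyceride replicate 7, reached 6.99. The same array read 5.65 for Proc and 4.87 for Kng1, each the highest adipose value of its gene, at an Alb of 4.98. Proc read 12.25, 12.64 and 12.91 in high and 12.57, 12.68 and 12.76 in low triglyceride livers. Plg read 13.19, 13.50 and 13.65 in high and 13.41, 13.53 and 13.64 in low triglyceride livers and at most 3.09 elsewhere.

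The coagulation genes highest in adipose tissue were F3, Thbd and Pros1. Tissue factor (F3), which starts coagulation, read 4.26, 5.72 and 6.67 in liver, 5.14, 5.87 and 6.55 in muscle, at most 2.49 in pancreas, and 8.49, 9.20 and 10.44 in adipose tissue. Thrombomodulin (Thbd), the endothelial receptor that turns thrombin towards protein C, was at 2.30, 2.40 and 2.81 in liver, close to the lowest value, and at 9.42, 10.86 and 11.61 in adipose tissue. Its order over tissues was liver below pancreas (4.13, 5.14 and 6.29), pancreas below muscle (6.74, 7.38 and 7.78) and muscle below adipose tissue, and no neighbours in that order overlapped. Protein S (Pros1), the cofactor of protein C, was well expressed in liver too, at 7.71, 8.03 and 8.53, against 8.98, 9.38 and 9.84 in adipose tissue, which was above liver in 15 of 15 mice. The summed signal of 6 endothelial markers was 6.61 to 7.45 in liver and 5.43 to 5.71 in pancreas over both groups of mice. It was 9.19 to 9.80 in muscle and 10.47 to 11.37 in adipose tissue. Pancreas thus lay below liver in this sum but above liver in Thbd. The part of endothelial cells in the Thbd differences was not tested.

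The C1q chains and the anaphylatoxin receptors had their highest means in adipose tissue. C1qb read 6.11, 6.92 and 8.70 in liver and 10.94, 11.84 and 12.69 in adipose tissue, and C1qc read 2.88, 3.06 and 4.78 in liver and 7.47, 8.37 and 9.32 in adipose tissue. Properdin (Cfp), which stabilises the alternative pathway convertase, read 2.90, 3.14 and 4.19 in liver and 6.99, 7.83 and 8.23 in adipose tissue. C3ar1, the receptor for C3a, read at most 2.39 in liver and 6.08, 7.25 and 10.02 in adipose tissue. C5ar1, the receptor for C5a, read at most 2.49 in liver and 2.41, 3.72 and 6.81 in adipose tissue, so part of the adipose arrays were near the lowest value. A second C5ar1 probe set, not the one that stood for the gene, had an adipose median of 2.24 and read at most 2.91 there. All 8 macrophage markers had an adipose mean of 4 or more. In liver 4 of them did, while 3 others, Cd68, Cd14 and Itgam, stayed near the lowest value on every array. The summed signal of 5 Kupffer cell markers had higher medians in liver, 8.66 in high and 8.11 in low triglyceride mice. In adipose tissue these medians were 6.67 and 5.96, and the ranges of the tissues overlapped.

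C1qa behaved differently from its partner chains in pancreas. In liver it read 3.63, 4.80 and 6.58, and in adipose tissue 9.33, 10.26 and 11.16. In pancreas, 6 high triglyceride arrays read 9.05 to 11.09 and 2 read 2.73 and 3.38, while 5 low triglyceride arrays read 9.20 to 10.78 and 3 read 2.69 to 3.90. No pancreas array lay in between. C1qb on the same arrays read 4.56 to 6.50 where C1qa was above 9 and 4.73 to 5.66 where it was below 4, and C1qc never read above 2.91. The same mice did not divide in this way in the other tissues, with adipose C1qa of 9.33 to 11.16 in the 11 mice and 9.66 to 10.49 in the 5 mice. C1qa rests on a single probe set. Of the macrophage markers, Cd68 was at the lowest value on all pancreas arrays, while Csf1r and Lyz2 had signal there. Csf1r read 4.96 to 6.18 where C1qa was above 9 and 5.25 to 5.87 where it was below 4. Lyz2 read 6.04 to 8.62 and 6.93 to 8.19 on these 2 sets of arrays.

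**Figure D2:**
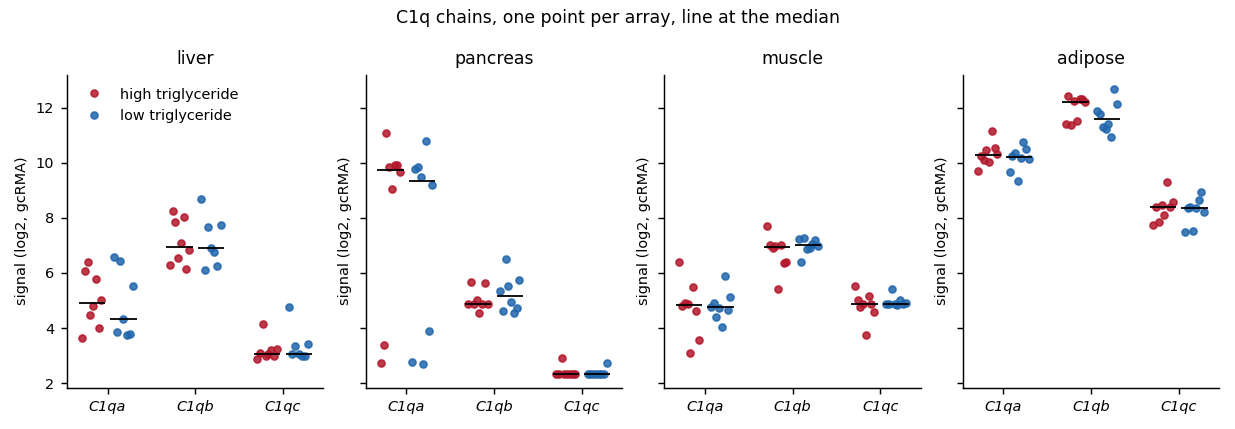
Signal of the 3 C1q chains (log2, vertical axis) in each tissue, 1 point per array, with high triglyceride mice left of low triglyceride mice and a line at each median. In pancreas the C1qa points of both groups form an upper set above 9 and a lower set below 4, while C1qb and C1qc do not divide.

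The comparison of high with low triglyceride mice asks which genes differ in expression between these groups. In the paper's phenotypes the high triglyceride mice also had heavier fat pads in sum, and higher cholesterol at some ages. Triglyceride and these traits cannot be told apart here. No member passed an adjusted p of 0.05 in limma in any tissue, and no probe set of the array did (0.00% in each tissue). The lowest adjusted p of a member was 0.802 for liver, 0.795 for pancreas, 0.846 for muscle and 0.900 for adipose tissue. At an unadjusted p under 0.05 there were 2 of the 39 members for liver (against 5.36% of all probe sets), 0 for pancreas (against 2.23%), 2 for muscle (against 4.10%) and 0 for adipose tissue (against 4.62%). Among members with a mean of 4 or more there were 2 of 34 for liver (against 13.6% of such probe sets), 0 of 6 for pancreas (6.42%), 1 of 8 for muscle (9.52%) and 0 of 13 for adipose tissue (9.27%). A plain F test also called 0 members in each tissue after adjustment. A single limma fit of all 4 tissues with mouse as a random block, in which the tissues share 1 spread, called 2 of the 39 members in liver (Klkb1 and C4bp, adjusted p = 0.00335 and 0.0353), against 0.453% of all probe sets. It called 2 in adipose tissue (C2 and F10, adjusted p = 0.0257 and 0.0307), against 2.80% of all probe sets, and 0 in pancreas (0.0888%) and muscle (0.151%). In pancreas, muscle and adipose tissue Klkb1 and C4bp each averaged 2.35, 2.29 and 2.24, at or near the lowest values. In pancreas and muscle C2 averaged 2.35 and 3.40, and F10 averaged 3.74 and 2.30. Arrays at the lowest value hardly vary and so lower the spread that this fit shares between tissues. For no member did the high and low groups separate without overlap, as they did for 0.0377% of all probe sets for liver, 0.00444% for pancreas, 0.0311% for muscle and 0.0222% for adipose tissue.

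The size of difference that these arrays leave possible depended on the tissue. In liver, 34 members had a mean of 4 or more, their differences ran from -0.30 (Hc) to 0.32 (F3), and the median standard error was 0.10. In liver 37 of the 39 members had a 95% interval within 1 unit of zero. In pancreas, muscle and adipose tissue 6, 8 and 13 members had a mean of 4 or more, and the 95% intervals of those 13 in adipose tissue reached from -1.71 to 2.18. The median difference of all 39 members was -0.02 for liver, 0.00 for pancreas and muscle and 0.06 for adipose tissue, and over all probe sets it was 0.00 in each.

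**Figure D3:**
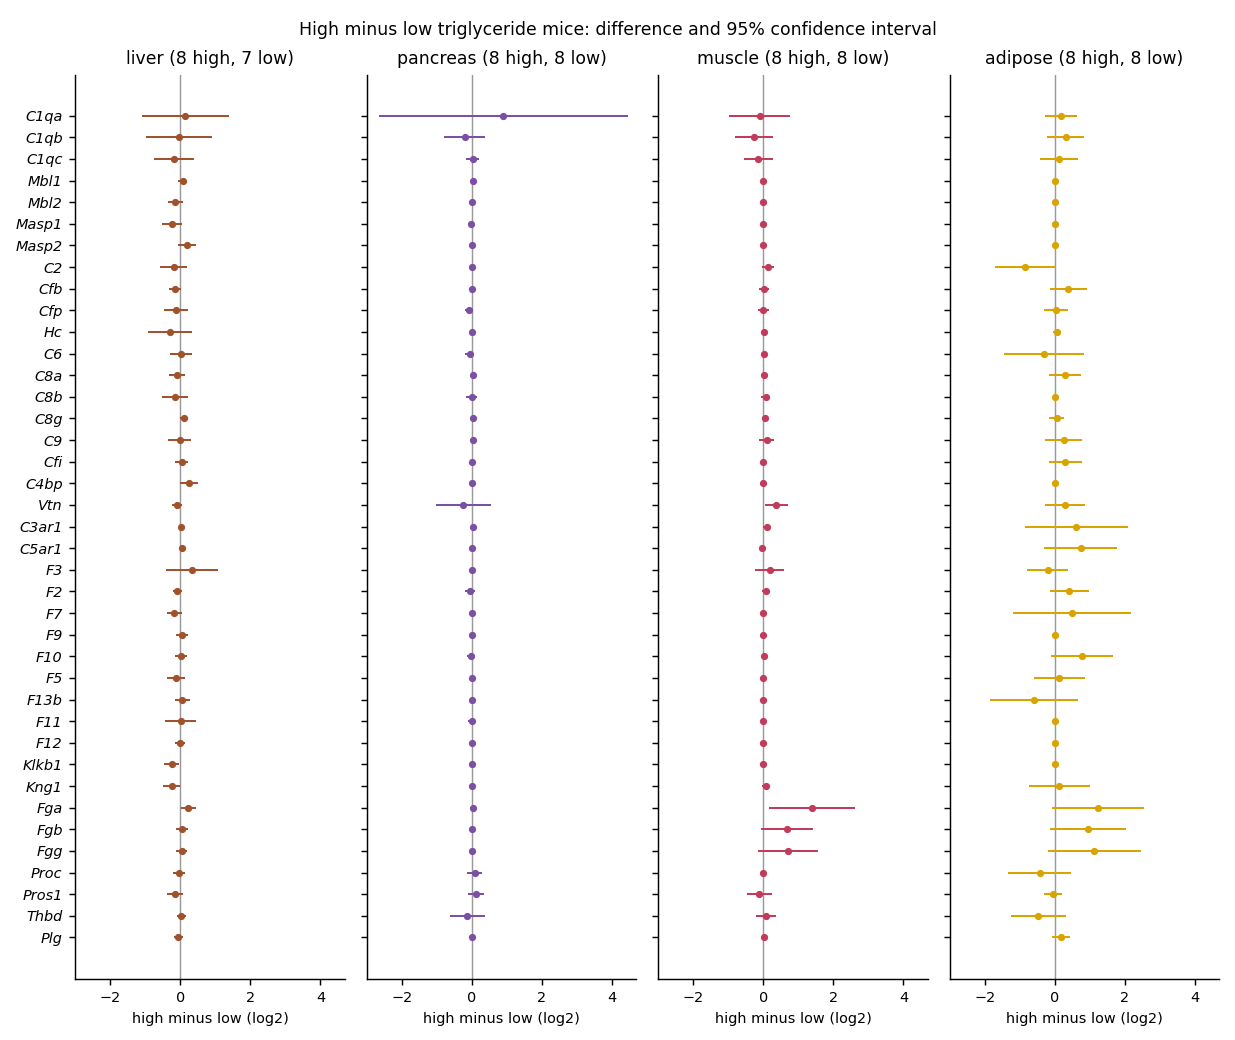
Difference between high and low triglyceride mice (log2, horizontal axis) for each member in the 4 tissues, with the 95% interval of limma as a line. In liver the points lie between -0.30 and 0.32, and in muscle and adipose tissue the fibrinogen chains lie farthest above zero with wide intervals.

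In liver, the member with the lowest p was Klkb1, the protease that activates factor XII. It read 11.50, 11.86 and 12.18 in high triglyceride mice and 11.99, 12.15 and 12.24 in low triglyceride mice, and the groups overlapped. The difference was -0.25 ± 0.10 (SE), with an adjusted p of 0.802. Kng1, its substrate and carrier, read 13.58, 14.22 and 14.43 in high and 14.21, 14.39 and 14.59 in low triglyceride mice, a difference of -0.24 ± 0.11 with an adjusted p of 0.802. Fga went the other way, with 14.65, 14.78 and 14.90 in high and 14.12, 14.56 and 14.88 in low triglyceride mice and a difference of 0.23 ± 0.10, at an adjusted p of 0.802. The low triglyceride mice spread more than the high triglyceride mice for Fga and less for Klkb1 and Kng1. The values of Fgb were 14.46, 14.78 and 14.99 in high and 14.53, 14.70 and 14.96 in low triglyceride mice, a difference of 0.04 ± 0.08. Fgg read 14.45, 14.69 and 14.91 in high and 14.50, 14.71 and 14.81 in low triglyceride mice, a difference of 0.04 ± 0.07.

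Outside the liver a fibrinogen chain of 4 or more was read only on arrays of high triglyceride mice. In muscle, Fga read 6.50, 5.36 and 4.37 on high triglyceride replicates 1, 4 and 7 and just under 4 on replicate 2, and 2.29 on the other 4 high and all 8 low triglyceride arrays. Fgb and Fgg followed on replicates 1 and 4, with 4.81 and 4.08 for Fgb and 5.32 and 4.26 for Fgg. In adipose tissue, Fga read 5.07, 6.57 and 4.98 on high triglyceride replicates 2, 3 and 4, and 2.24 on the other 5 high and all 8 low triglyceride arrays. Replicate 4 was the mouse in which both tissues read above 4. The differences were 1.39 ± 0.58 in muscle and 1.24 ± 0.62 in adipose tissue for Fga, each with an adjusted p of at least 0.846, and the spread in these tests came from the high triglyceride arrays alone, since all low triglyceride arrays held the lowest value.

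Albumin, the most abundant product of hepatocytes, was high on those arrays. In muscle, Alb read 9.04 to 10.66 on the 3 arrays with Fga of 4 or more, and at most 8.64 on the other high and 7.34 on the low triglyceride arrays. In adipose tissue, Alb read 10.73 to 11.41 on the 3 arrays with Fga of 4 or more, at most 8.33 on the other high and at most 7.02 on the low triglyceride arrays. The summed signal of all 7 measured hepatocyte markers was 5.14 to 11.34 in high and 5.22 to 8.02 in low triglyceride muscle, and 5.91 to 12.07 in high and 5.82 to 7.31 in low triglyceride adipose tissue, with the hepatocyte marker Tat near the lowest value on all of them. Without the 4 muscle arrays of high triglyceride mice whose Alb exceeded every low triglyceride array (replicates 1, 2, 4 and 7), or the 5 such adipose arrays (replicates 1 to 5), no array with Fga above the lowest value remained, so no Fga difference can be read from the rest. In pancreas Alb read at most 2.89 and no fibrinogen chain reached 4 on any array. The source of the fibrinogen and albumin signal was not tested.

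**Figure D4:**
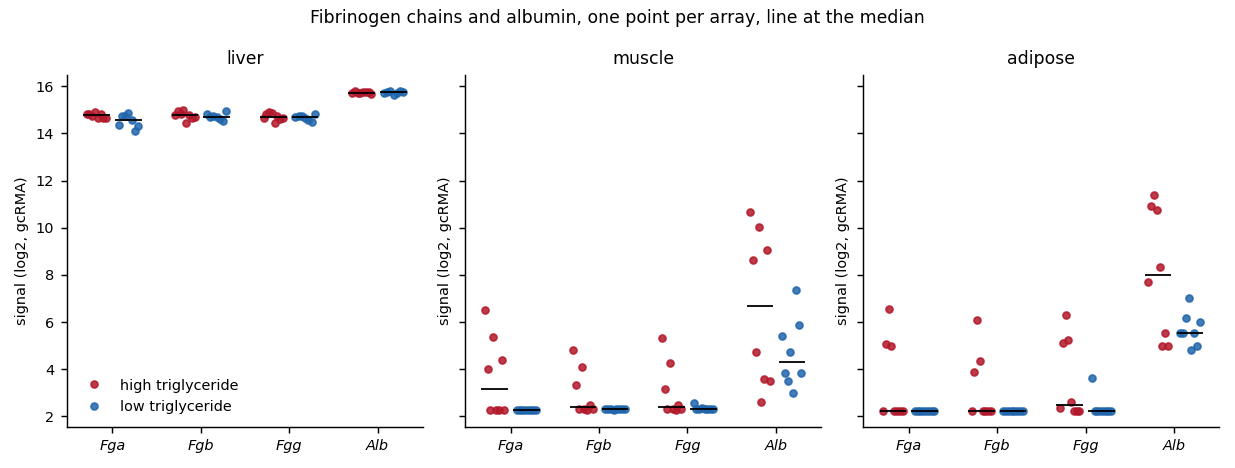
Signal of the fibrinogen chains and albumin (log2, vertical axis) in liver, muscle and adipose tissue, 1 point per array, with high triglyceride mice left of low triglyceride mice and a line at each median. The muscle and adipose points of Fga above 4 all belong to high triglyceride mice, with Alb between 9.04 and 11.41 on the same arrays.

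In muscle the only other member with an unadjusted p under 0.05 was Vtn, at 5.25, 5.69 and 6.00 in high and 4.90, 5.40 and 5.75 in low triglyceride mice. The difference was 0.36 ± 0.15, with an adjusted p of 0.846, and the groups overlapped. Without the 4 arrays of high albumin it was 0.29 with an adjusted p of 0.997. The second Vtn probe set stayed at or below 2.54 in muscle. Adipocyte markers were read in muscle as well, 3 of 4 at a mean of 4 or more, with a summed signal of 13.04 to 13.86 (median 13.70) in high and 12.89 to 13.62 (median 13.24) in low triglyceride mice. Their part in the Vtn difference was not tested.

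In adipose tissue, C2 had the lowest p of the members. It read 8.06, 8.27 and 9.56 in high and 7.89, 9.90 and 10.54 in low triglyceride mice, a difference of -0.85 ± 0.41 with an adjusted p of 0.900. Factor X (F10) read 2.44, 4.11 and 4.73 in high and 2.29, 2.76 and 3.89 in low triglyceride mice, a difference of 0.78 ± 0.41 with an adjusted p of 0.900. Both groups overlapped for both genes. Without the 5 high triglyceride arrays of high albumin, the F10 difference was 1.69 with an adjusted p of 0.339, and the 3 high triglyceride arrays that remain are those whose Cd68 was between 9.87 and 10.96. In pancreas the members with the lowest p, C3ar1, Cfp and C8g, had little signal. C3ar1 read 2.35, 2.35 and 2.45 in high and 2.35 throughout in low triglyceride mice. Cfp read 2.65, 2.71 and 2.80 in high and 2.71, 2.71 and 3.06 in low triglyceride mice, and C8g read 3.43, 3.43 and 3.52 in high and 3.34, 3.43 and 3.43 in low triglyceride mice.

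Among the members highest in adipose tissue no difference between the groups passed the test, and each 95% interval held zero. Thbd read 9.42, 10.60 and 11.45 in high and 9.62, 11.24 and 11.61 in low triglyceride mice, and C3ar1 read 6.63, 7.98 and 9.91 in high and 6.08, 6.93 and 10.02 in low triglyceride mice. Their differences were -0.47 (95% interval -1.26 to 0.31) and 0.61 (-0.85 to 2.08). C5ar1 read 3.18, 3.82 and 6.81 in high and 2.41, 3.72 and 4.77 in low triglyceride mice, a difference of 0.73 (-0.31 to 1.78). All groups overlapped for these genes. Of the C1q chains, C1qa read 9.70, 10.29 and 11.16 in high and 9.33, 10.21 and 10.77 in low triglyceride mice. C1qb read 11.38, 12.22 and 12.43 in high and 10.94, 11.60 and 12.69 in low triglyceride mice. C1qc read 7.72, 8.40 and 9.32 in high and 7.47, 8.35 and 8.95 in low triglyceride mice. The groups overlapped for each chain, as they did for the remaining adipose genes. Cfp read 6.99, 7.90 and 8.23 in high and 7.35, 7.75 and 8.14 in low triglyceride mice. F3 read 8.73, 9.09 and 10.07 in high and 8.49, 9.38 and 10.44 in low triglyceride mice. Pros1 read 8.98, 9.36 and 9.58 in high and 8.99, 9.42 and 9.84 in low triglyceride mice. The differences of C1qa, C1qb, C1qc, Cfp, F3 and Pros1 lay between -0.20 and 0.31.

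Whether the effect of triglyceride group differs between tissues was tested within mice, on the difference of liver minus each other tissue. No member passed an adjusted p of 0.05 in limma in the contrasts with pancreas, muscle and adipose tissue (0.00%, 0.00% and 0.00222% of all probe sets passed). At an unadjusted p under 0.05 there were 1, 4 and 4 members, against 4.52%, 4.90% and 6.70% of all probe sets. The lowest p was that of C2, whose liver level exceeded the adipose level by 0.61 on average in high triglyceride mice, against -0.26 in low triglyceride mice, a contrast of 0.87 ± 0.26 with an adjusted p of 0.546.

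Differences between mice that were shared by the 4 tissues were tested for each probe set with tissue as a term. None of the 39 members passed an adjusted p of 0.05 in limma (0.722% of all probe sets passed), and C1qb alone had an unadjusted p under 0.05 (7.52% of all probe sets did), at an adjusted p of 0.613. The next in order were C2, Vtn, Fgb and Fgg, with adjusted p between 0.825 and 0.851.

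Correlations over mice were listed for 19 pairs, of which 8 could be computed. In 9 pairs a gene lay within 0.5 of the lowest value on more than 0.5 of the arrays, among them every pair with Cd68 in liver, pancreas and muscle, and in 2 a gene was not analysed here. P-values are from 100000 permutations and were adjusted over the 8 pairs. In liver, Fgb and Fgg, the β and γ chains of fibrinogen, rose and fell together over the 15 mice (r = 0.915, rho = 0.911, adjusted permutation p = 4e-05 for each, and r = 0.848 without the 2 mice of most extreme Fgg). Fga, the α chain, did not pass with either chain, with r = 0.272 for Fgb (rho = 0.404) and r = 0.360 for Fgg (rho = 0.439), at adjusted permutation p of 0.373 and 0.252 for r and 0.159 and 0.140 for rho. Within the 8 high triglyceride mice r was 0.827 for Fga with Fgb and 0.673 for Fga with Fgg, and within the 7 low triglyceride mice it was 0.0059 and 0.275. For Fgb with Fgg it was 0.928 and 0.888. These differences between the groups of mice were not tested. All 3 chains spanned less than 0.78 in liver and lay between 14.12 and 14.99. C9 passed with the acute phase gene haptoglobin (Hp), with r = 0.636 (adjusted permutation p = 0.0177) and rho = 0.632 (adjusted permutation p = 0.0272), and r = 0.774 without the 2 mice of most extreme Hp. After quantile normalisation this relation no longer passed (r = 0.552, adjusted permutation p = 0.063), and r was 0.498 within high and 0.963 within low triglyceride mice. Fgb did not, at r = 0.034 and rho = 0.068, with adjusted permutation p of 0.906 and 0.813.

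In adipose tissue, C3ar1 was closely tied to Cd68, a lysosomal protein of macrophages that ran from 7.23 to 10.96 over the 16 mice. The correlation was 0.980 (rho = 0.929, adjusted permutation p = 4e-05 for each) and 0.972 without the 2 mice of most extreme Cd68. Cfb also passed, with r = 0.763 and rho = 0.797 (adjusted permutation p = 0.00168 and 0.000693), and r = 0.751 without those 2 mice. C1qb did not pass, at r = 0.462 and rho = 0.485 (adjusted permutation p = 0.114 and 0.0928), although r was 0.810 without those 2 mice. The smallest p that 100000 permutations can give is 1e-05 before adjustment.

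The Cd68 values left a gap between 9.01 and 9.87, with 11 mice below it and 5 above (high triglyceride replicates 6, 7 and 8 and low triglyceride replicates 6 and 7). Within the 11 mice below the gap, C3ar1 still followed Cd68, with r = 0.871 (permutation p = 0.00074) and rho = 0.809 (permutation p = 0.00359), and Cfb had r = 0.604 (permutation p = 0.0495) and rho = 0.700 (permutation p = 0.0201). These values within the 11 mice were not adjusted. Within high and within low triglyceride mice r was 0.987 and 0.981 for C3ar1, 0.531 and 0.923 for Cfb, and 0.666 and 0.283 for C1qb.

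For a further 10 members with signal in adipose tissue the relation with Cd68 was computed after these values were seen, with p-values adjusted over the 10. By both r and rho, 7 passed. The values of r were positive for F7 (0.878), C1qc (0.757), C1qa (0.726), C5ar1 (0.666) and Cfp (0.665), with adjusted permutation p of at most 0.00556. They were negative for Thbd (-0.898) and C2 (-0.835), each with an adjusted permutation p of 0.000433. The corresponding rho were 0.749, 0.809, 0.750, 0.551 and 0.774 for the first 5 and -0.756 and -0.847 for Thbd and C2, with adjusted permutation p of at most 0.0401. C6 (r = 0.153), F3 (r = -0.432) and Pros1 (r = 0.213) did not pass. Without the 2 mice of most extreme Cd68 the 7 values of r kept their signs, between 0.595 and 0.850 for the positive ones and -0.853 and -0.793 for Thbd and C2.

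Within the 11 mice below the Cd68 gap r was nearer zero for each of the 7 but Cfp. Cfp had r = 0.730 (permutation p = 0.0108) and C2 r = -0.623 (permutation p = 0.0434), while F7 had r = 0.533, Thbd r = -0.289, C1qa r = 0.492, C1qc r = 0.440 and C5ar1 r = 0.324, with permutation p between 0.0852 and 0.384. These p-values were not adjusted, and Cd68 spans a smaller range in the 11 mice than in all 16.

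Some summed marker lists also moved with Cd68 on the same arrays. Over the 16 mice and 15 marker lists, the summed signal of the other 7 macrophage markers had r = 0.971, of 5 neutrophil markers r = 0.849 and of 8 acute phase genes r = 0.850, with adjusted permutation p of at most 0.00125. Their rho were 0.962, 0.794 and 0.753, with adjusted permutation p of at most 0.00545, and their r without the 2 mice of most extreme Cd68 were 0.957, 0.811 and 0.796. Only 1 of the 5 neutrophil markers, S100a8 (5.99 to 12.66), had an adipose mean of 4 or more, so the neutrophil sum mostly reflects that gene. Ngp and Camp stayed near the lowest value on every array. Ltf was highest, at 5.37, on high triglyceride replicate 5, where Cd68 was 7.70. Of the 8 acute phase genes 4 had an adipose mean of 4 or more in each group, and Hp (13.71 to 14.77) made up most of their sum. Lcn2 read 10.70 on low triglyceride replicate 1 (Cd68 of 7.45) and 8.27 on high triglyceride replicate 8 (Cd68 of 10.96). Saa3 read 7.23 and 11.42 on these arrays. The 6 endothelial markers had r = -0.539 and rho = -0.685 (adjusted permutation p = 0.0987 and 0.0167). The 5 muscle fibre markers had r = -0.399 (adjusted permutation p = 0.212). Positive r that did not pass were 0.556 for adipocyte, 0.489 for fibroblast and 0.488 for platelet markers (adjusted permutation p = 0.096, 0.116 and 0.116). The remaining lists had negative r and did not pass by r or rho. The part of each cell type in the relations of the members was not tested.

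**Figure D5:**
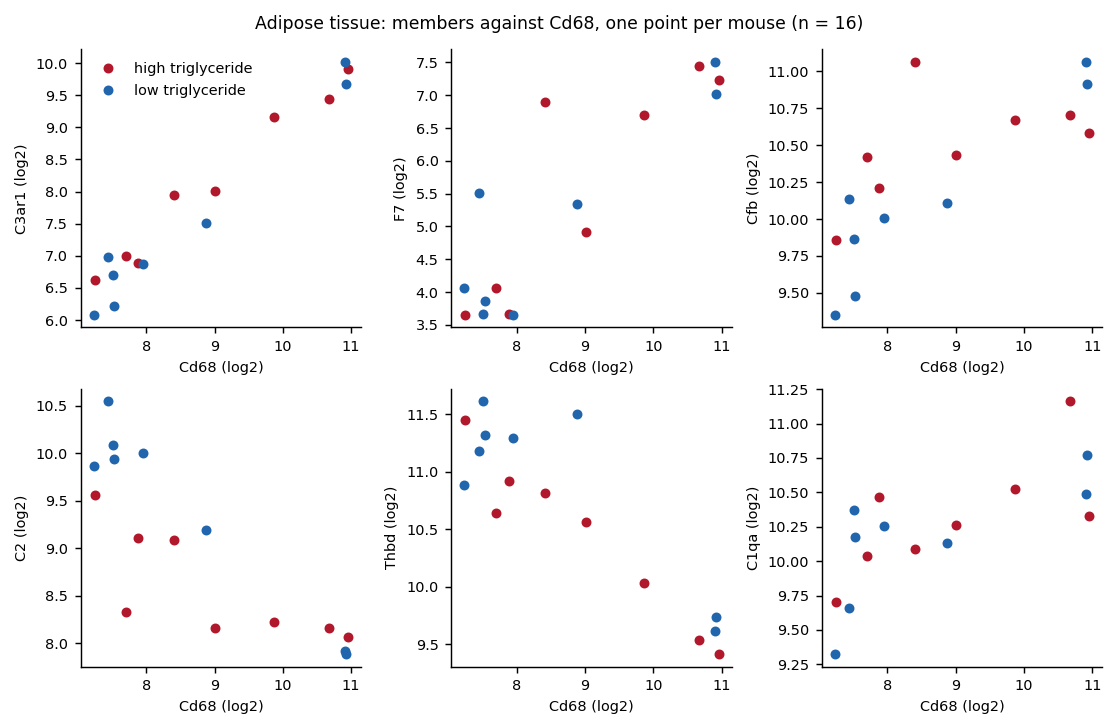
Signal of 6 members in adipose tissue against Cd68 (log2 on both axes), 1 point per mouse, with high and low triglyceride mice in different colours. C3ar1 rises with Cd68 over its whole range (r = 0.980), F7, Cfb and C1qa are high where Cd68 is high, and C2 and Thbd are low there, with mice of both groups at each end.

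Of 52 further complement and coagulation genes that are not members, 43 were measured, and none passed an adjusted p of 0.05 in limma in any tissue. At an unadjusted p under 0.05 there were 2 of the 43 for liver (against 5.36% of all probe sets), 0 for pancreas (2.23%), 2 for muscle (4.10%) and 3 for adipose tissue (4.62%). In limma the lowest p in adipose tissue was that of Serping1, the C1 inhibitor, with means of 12.33 in high and 12.03 in low triglyceride mice and a difference of 0.30 ± 0.10 (adjusted p = 0.900). In liver it was that of Proz, which encodes a cofactor that inhibits factor X, with means of 11.55 in high and 11.73 in low triglyceride mice and a difference of -0.18 ± 0.06 (adjusted p = 0.802).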

How the data were processed

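The authors hybridised RNA of each tissue of each mouse to 1 Affymetrix mouse genome array and deposited gcRMA log2 values, which were used as given. Arrays of a tissue share a lowest value that differs between tissues, and a test was made within each tissue, on differences within a mouse or with tissue as a term, while levels set across tissues are a description. A table of traits and genotypes, which as held here has no mouse numbers, was not used here. For arrays, their number limits the precision.

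Probe sets were named from the platform annotation: of 45037 that are not controls, 34945 have 1 gene symbol, 932 several and 9160 none listed. High and low triglyceride mice were compared with limma 3.58.1 in R 4.3.3 over all 45037 probe sets, two-sided, with Benjamini-Hochberg adjustment at 0.05. The same test was run on the within-mouse difference of liver minus each tissue, and limma's F test on mouse with tissue as a term. The study's methods give a mixed ANOVA with genotype and tissue effects, and a plain F test and 1 fit of all tissues were tried in its place. Correlations used 100000 permutations (scipy 1.17.1). The label numbers mark the same mouse across tissues, but a high and a low triglyceride mouse of the same number are different mice, so no pairing entered the comparisons. Scripts were tested on simulated data.

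All genes of the set are accounted for by role. Values by group are given, in the tissue concerned, for those of adjusted p under 0.05, the 3 of lowest p in each tissue, the 5 of lowest p in the test on mouse, those highest outside liver, and for each role the gene of largest distance between liver and the next tissue. The genes, the lists and the liver array left out were chosen with earlier results of these data known. Alternatives were quantile normalization, only probe sets with a mean of 4 or more, a plain F test, array weights, a replicate block, 1 fit of all tissues with mouse as a random block, the mean of all probe sets of a gene, each array left out in turn, the test on mouse without the liver arrays, and the liver array of low triglyceride replicate 7 kept. Leaving out arrays of high albumin signal, the further relations with Cd68, the marker lists against Cd68 and the mice below the Cd68 gap were added after the data were seen.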

Additional observations from a re-analysis of the deposited data

Results flagged for a closer look

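Of 60 groups of arrays examined for the named genes, 6 held an array that stood apart from the rest by Dixon's criterion, which flags about 1 group in 20 by chance. On the liver array of high triglyceride replicate 8, C9 read 13.38, with the next array of that group at 13.79. On the adipose array of high triglyceride replicate 1, Cfp read 6.99, with the next at 7.66. The other 4 were pancreas arrays of genes with little signal there: Cfp at 2.80 in high triglyceride replicate 5, C8g at 3.52 in high triglyceride replicate 3 and at 3.34 in low triglyceride replicate 8, and C3ar1 at 2.35 in low triglyceride replicate 8.

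The array labelled liver, low triglyceride, replicate 7, which entered no comparison, read 14.23 for the adipocyte gene Adipoq, where the other liver arrays read at most 4.41. Among the Masp1 probe sets that did not stand for the gene, 1 averaged 2.31 over liver arrays and 5.17 over muscle arrays.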

How the results depend on the processing

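No member was called in any tissue under quantile normalization, restriction to a mean of 4 or more, a plain F test, array weights, the mean of all probe sets of a gene, or with any 1 array left out (0 to 0 members in each tissue). A replicate block in limma, which joins different mice that share a number, also called 0 members. Its lowest adjusted p was 0.803 for liver, 0.827 for pancreas, 0.847 for muscle and 0.735 for adipose tissue. For high and low arrays of the same number, the deviations from their group means were correlated. These correlations were above 0.1 in 2 of 7, 1 of 8, 1 of 8 and 4 of 8 pairs of these tissues. One fit of all 4 tissues with mouse as a random block called 2 members in liver, Klkb1 (-0.25, adjusted p = 0.00335) and C4bp (0.25, adjusted p = 0.0353), and 2 in adipose tissue, C2 (-0.85, adjusted p = 0.0257) and F10 (0.78, adjusted p = 0.0307). That fit uses 1 spread for all tissues, and it called 204 probe sets in liver and 1261 in adipose tissue. For Klkb1 and C4bp that spread included the other tissues, where both lay at or near the lowest value and hardly varied.

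With liver low triglyceride replicate 7 kept, 6 members in place of 29 were separate in liver, the differences of Klkb1 and Kng1 turned to 0.81 and 0.56, and the correlations of Fga with Fgb and Fgg and of Fgb with Hp were 0.997, 0.997 and 0.931. Without the muscle arrays of high albumin the Fgb difference was -0.0021. After quantile normalization C9 with Hp had r = 0.552 at an adjusted permutation p of 0.063; the cause was not tested. In the other repeats over all these alternatives, 108 counts stayed equal or close to the count of the main setting. The 278 single values kept their sign and their call. Signal near the lowest value of a tissue gives no order, and most members lay there outside the liver.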
